A study of Mus musculus with 16 samples.

Results

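The genes described here are 9 immediate-early genes that B cells switch on after stimulation of the B cell receptor (BCR): Egr1, Egr2, Egr3, Fos, Nr4a1, Nr4a3, Ier2, Dusp2 and Cd69. They were taken by name from a table of 56691 genes, and all 9 had counts in some cells. The cells were light zone (LZ) germinal center (GC) B cells, sorted from lymph nodes of 8 mice and sequenced one by one by SMART-seq2, a full-length method without molecular identifiers. The donor cells were B1-8hi, a knock-in heavy chain that binds the hapten NP with high affinity. They were either BTKWT or BTKC481S, a drug-resistant point mutant of Bruton's tyrosine kinase (BTK). Both kinds had been transferred into the same hosts, which were primed with ovalbumin at 6 to 8 weeks of age and boosted with NP-ovalbumin. Of the hosts, 5 (A7, A8, A10, A11 and A12) were given acalabrutinib, a covalent BTK inhibitor, and 3 (V5, V7 and V9) vehicle, as 3 oral doses with the sort 14 hours after the first and 2 hours after the last. The names of the cells give the host and not the genotype, so each host's value joins drug-sensitive and drug-resistant cells, and effects in BTKWT and in BTKC481S cells cannot be told apart. The comparison of genotypes was not analysed here.

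Antigen binding to the BCR activates SYK and BTK, which lead through phospholipase C to calcium, ERK and NF-kB signals. Immediate-early genes are the first to be transcribed in answer, since the factors that read these signals at their promoters, such as serum response factor (SRF), its ETS partners and CREB, are already present. Their RNAs are short-lived, so a count in a cell speaks for recent transcription. In the LZ, B cells test their receptors on antigen held by follicular dendritic cells and receive help from T cells, and Myc marks the minority of cells being selected.

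Promoter windows from 250 bases before to 50 bases after the start site were listed by RefSeq (GRCm38.p6) for 5 of the 9 genes: Egr2, Fos, Nr4a1, Nr4a3 and Dusp2. A window of Egr2 and those of Nr4a1 and Nr4a3 are shown. Most Egr2 cells also had Egr1, while the paralogs Nr4a1 and Nr4a3 had the lowest median levels in cells with a count. Capitals mark the CArG box, which SRF binds, the core TGACG of the cAMP response element (CRE), which CREB binds, and the NF-kB motif, each on either strand.
Egr2, chr10:67537619-67537918, plus strand: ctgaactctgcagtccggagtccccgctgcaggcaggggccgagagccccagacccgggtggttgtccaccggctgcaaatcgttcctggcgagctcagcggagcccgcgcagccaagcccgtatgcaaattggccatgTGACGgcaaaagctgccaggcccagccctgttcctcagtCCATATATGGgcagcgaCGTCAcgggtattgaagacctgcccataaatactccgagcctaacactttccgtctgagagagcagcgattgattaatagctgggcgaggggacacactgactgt
Nr4a1, chr15:101266596-101266895, plus strand: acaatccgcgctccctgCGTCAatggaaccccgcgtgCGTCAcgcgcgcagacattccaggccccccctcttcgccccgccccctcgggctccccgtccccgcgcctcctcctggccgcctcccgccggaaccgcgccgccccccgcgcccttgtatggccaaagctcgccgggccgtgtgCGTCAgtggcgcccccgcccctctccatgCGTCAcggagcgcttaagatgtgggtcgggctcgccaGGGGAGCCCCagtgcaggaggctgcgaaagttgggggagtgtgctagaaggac
Nr4a3, chr4:48045055-48045354, plus strand: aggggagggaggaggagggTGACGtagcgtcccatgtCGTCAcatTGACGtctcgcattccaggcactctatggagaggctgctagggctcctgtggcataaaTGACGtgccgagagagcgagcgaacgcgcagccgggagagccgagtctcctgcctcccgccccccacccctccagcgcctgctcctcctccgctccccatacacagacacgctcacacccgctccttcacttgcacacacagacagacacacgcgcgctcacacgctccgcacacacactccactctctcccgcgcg

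The core TGACG was in a window of 5 of the 5 listed genes, against 23.0% of the 27025 genes with a window, and the full CRE palindrome, which is this core followed by TCA, was in none of the 5 and in 2.03% of all genes. Nr4a1 and Nr4a3 each had 4 matches to the core in 1 window. The CArG box was in Egr2 only, and in 1.81% of all genes. In the Egr2 window shown it lay 72 to 63 bases before the start and overlapped neither of the 2 cores. Egr2 had several windows and the other listed genes a single window each, and a match in any window counted. Another Egr2 window held a CArG box without a core, and another held no match. Sites beyond the windows were not searched. The NF-kB motif was in Nr4a1 and Fos and in 5.14% of all genes. These are matches of letters, and binding was not measured.

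The matrix held 637 cells from 15 plates, 381 of them from acalabrutinib hosts, with 45 to 130 cells per host and a median of 789357 counts per cell (132412 to 1825420). B cell and GC markers were found in most cells (Cd79a in 99.5%, Bcl6 in 86.5%). So were the LZ markers Cd83 (85.9%), Cd86 (63.6%) and Fcer2a (63.4%), while Cd40 was in 39.2%. The dark zone markers Cxcr4 (53.4%), Polh (59.0%) and Foxo1 (72.8%) were also in most cells. Of the plasma cell markers, Jchain was in 91.2%, Prdm1 in 6.28% and Sdc1 in 2.35%. Each of the 5 T cell markers had counts in 0.157% to 2.04% of cells. Macrophage markers were at 0 (Cd14, Itgam) or in at most 2.20% of cells, except Adgre1, which had counts in 38.1% of cells at 8.67 CPM. Ms4a1, a B cell gene, and the heat shock genes Hspa1a and Hspa1b had no count in any cell. CPM is the count scaled by the total of the cell or of the host. Since deeper cells show more genes, shares of cells with a count are given after each cell was thinned to 459128 counts, which left 573 cells, unless stated otherwise. The shares of the markers are of all 637 cells before thinning.

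The Egr genes encode zinc-finger transcription factors induced by ERK, and they spanned most of the range of the set. Egr1 had counts in 138 of 637 cells before thinning (21.7%, exact 95% interval 18.5% to 25.1%), the most of the 9, and Egr2 had counts in 61 (9.58%, 7.40% to 12.1%). Shares of the members that come with an interval in brackets are of all 637 cells before thinning, with hosts pooled. The intervals leave out the spread between hosts, whose Egr1 shares ran from 11.5% to 26.9%. Egr3, a target of NFAT as well as ERK, had counts in only 15 cells (2.35%, 1.32% to 3.85%). A cell that had Egr1 or Egr2 had much of it: the median was 416 CPM for Egr1 and 350 CPM for Egr2 in cells with a count, and 130 of the 138 Egr1 cells held at least 5 counts. Egr3 cells had a median of 48.2 CPM, and the top 10 cells held 98.7% of all Egr3 counts. Fos, which pairs with JUN proteins to form AP-1, was the rarest, in 12 cells (1.88%, 0.977% to 3.27%), with a median of 190 CPM in those cells. The 5 T cell markers, which these cells should lack, had counts in 0.157% to 2.04% of cells, so the share of Fos lay within their range and that of Egr3 just above it. In level, 11 of the 12 Fos cells and 11 of the 15 Egr3 cells held at least 5 counts. The like number is not given for the T cell markers. In CPM over all cells, the T cell marker Cd4 lay above Egr3 and below Fos, and the other T cell markers lay below both. Whether level sets Fos or Egr3 apart from genes that these cells should lack was not tested.

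Nr4a1 and Nr4a3 encode orphan nuclear receptors, and Nr4a1 in particular is widely used as a reporter of BCR signal strength. Nr4a1 had counts in 72 cells (11.3%, 8.95% to 14.02%), but its levels fell into a high and a low set: 37 of the 72 cells held only 1 to 4 counts, and the upper quartile of the cells was 272 CPM while the median was 4.80 CPM. In 29 cells with Nr4a3 (4.55%, 3.07% to 6.47%) the median was 1 count, 20 of them held 1 to 4 counts, and a single cell held 42.7% of all counts of the gene. Counting only cells with at least 5 counts before thinning, the share was 5.49% for Nr4a1 and 1.41% for Nr4a3, whereas that of Egr1 stayed at 20.4%. Whether the low counts come from the cell itself was not tested.

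Ier2, a nuclear protein of the early response, was found in 103 cells (16.2%, 13.4% to 19.3%) with a median of 285 CPM. Dusp2, a nuclear phosphatase that switches off ERK, was found in 109 cells (17.1%, 14.3% to 20.3%) at a lower median of 105 CPM. Cd69, a membrane lectin that holds lymphocytes in tissue by removing the S1P receptor S1pr1 from the surface, was found in 101 cells (15.9%, 13.1% to 18.9%) with a median of 430 CPM. Its levels were the most even among cells with a count by the ratio of the quartiles, with the middle quartiles at 285 to 583 CPM.

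**Figure D1:**
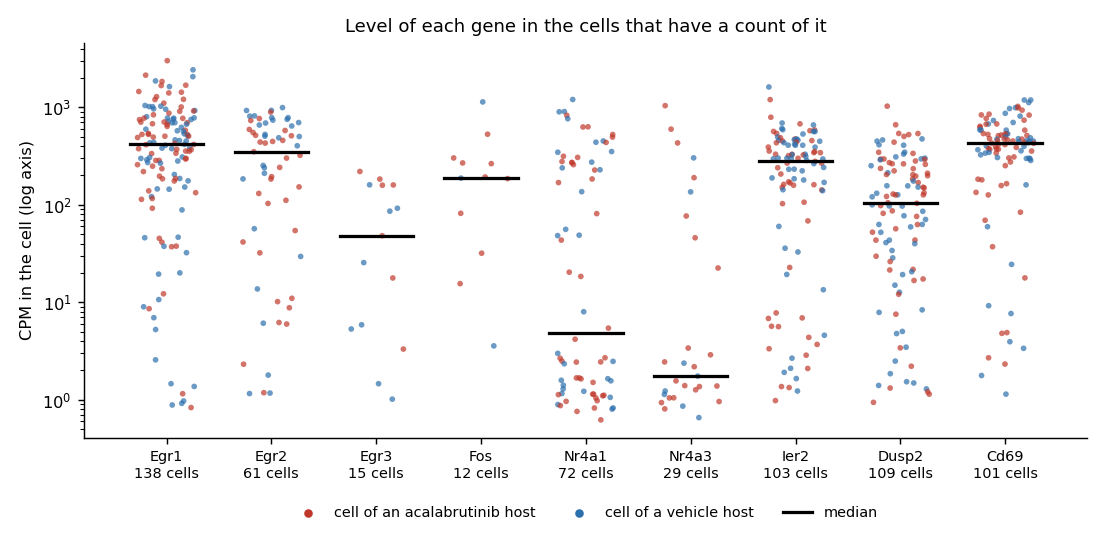
Each point is a cell with at least 1 count of the gene, on a logarithmic axis of CPM, coloured by the treatment of its host, with the median as a bar. Egr1, Egr2, Ier2 and Cd69 sit mostly above 100 CPM, while Nr4a1 splits into a high and a low set around a median of 4.80 CPM and most Nr4a3 cells lie near 1 CPM.

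Per kilobase of exon, the mean level over the 8 hosts was highest for Ier2 (30.5 ± 16.6 CPM per kb, SD) and Egr1 (25.6 ± 9.70), followed by Dusp2 (12.8 ± 8.11), Cd69 (10.2 ± 2.33), Egr2 (10.1 ± 6.09) and Nr4a1 (5.24 ± 3.90). Fos (2.14 ± 2.36), Nr4a3 (0.935 ± 1.45) and Egr3 (0.374 ± 0.389) were lowest. Egr1 lay above Dusp2 in 8 of 8 hosts. Dusp2, Cd69 and Egr2 could not be ordered, as Dusp2 was above Cd69 in 4 hosts and Cd69 above Egr2 in 4, and Ier2 was above Egr1 in 6. Counts included intronic reads, so this scale is approximate.

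The hosts differed from each other more for some genes than for others. Cd69 varied least as a ratio of the highest to the lowest host, from 48.8 to 96.1 CPM with a median of 65.3 over the 8 hosts. Dusp2 ran from 2.02 CPM in A10, where a single cell held 98.7% of the counts, to 56.2 CPM in A7. Ier2 ran the other way in the same hosts, with 17.2 CPM in A7 and 66.8 CPM in A10, and its highest value of 90.7 CPM was in V5. Nr4a3 was at 0 in A10 and at 24.97 CPM in A8, where 1 cell held 67.7% of the counts, and Fos was at 0 in A7, A8 and V7. For these rare genes the level of a host was the level of 1 or a few cells.

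To ask whether BTK inhibition changed the set, acalabrutinib hosts were compared with vehicle hosts. Egr1 was found in fewer cells of acalabrutinib hosts. After thinning, Egr1 was in 10.3% of cells in A7, 20.8% in A8, 12.8% in A10, 23.0% in A11 and 17.9% in A12, against 26.5% in V5, 26.9% in V7 and 27.3% in V9. The 3 vehicle hosts lay within a point of each other and above all 5 acalabrutinib hosts. These shares rest on 29 (A7) to 128 (V9) thinned cells per host. The means were 17.0% ± 5.33 (SD, n = 5) and 26.9% ± 0.407 (SD, n = 3), a difference of -9.96 points (exact two-sided permutation test over the 56 assignments of hosts, p = 0.0357, adjusted over 19931 genes p = 1). In 1.29% of all genes tested the vehicle hosts likewise lay above all acalabrutinib hosts, and in 1.11% below, so that such a split in 1 of 9 genes is not a call. Without thinning, the difference was -9.10 points (exact permutation p = 0.0179, which 8 hosts cannot undercut). With each host left out in turn, the thinned difference was -11.5 to -8.31 points, with an exact permutation p of 0.0571 to 0.0952. Single plates overlapped before thinning, at 10.3% to 30.9% of cells in the 9 plates of acalabrutinib hosts and 20.4% to 40.9% in the 6 of vehicle hosts. The level of Egr1 did not show the same split: host CPM was 56.6 to 150 with acalabrutinib and 82.6 to 194 with vehicle, and the median cell with a count had 458 CPM in acalabrutinib and 396 CPM in vehicle hosts.

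**Figure D2:**
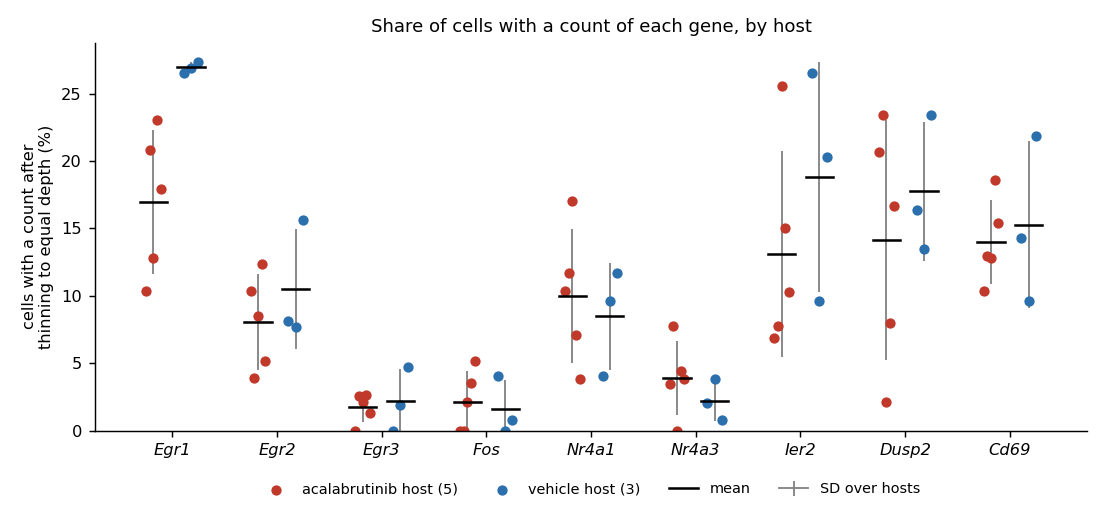
Each point is a host, at the share of its thinned cells with a count of the gene, with the mean as a black bar and the SD as a grey line that is cut at 0. For Egr1 the 3 vehicle hosts (26.5% to 27.3%) sit above the 5 acalabrutinib hosts (10.3% to 23.0%), and for the other 8 genes the treatments overlap.

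No gene of the set was called between treatments in counts summed per host, which does not show that their levels were equal. In edgeR's quasi-likelihood test 0% of 18016 genes were called, with 616 at an unadjusted p under 0.05, and the 9 genes all had an adjusted p that rounds to 1. DESeq2 called 94 genes, none of them of the set. The closest were Ier2 and Egr2. Ier2 was at 17.2, 18.4, 66.8, 36.9 and 34.1 CPM in A7, A8, A10, A11 and A12, and at 90.7, 46.2 and 61.5 CPM in V5, V7 and V9. A10 lay among the vehicle hosts, and the log2 difference of acalabrutinib minus vehicle was -0.98 (SE 0.45, edgeR adjusted p of 1). Egr2 was at 35.6, 6.38, 19.3, 45.7 and 12.4 CPM in the acalabrutinib hosts and at 52.8, 37.0 and 66.5 CPM in the vehicle hosts. A11 lay above V7, and the log2 difference was -1.13 (SE 0.59, edgeR adjusted p of 1). The log2 difference was smaller for Cd69 (-0.19, SE 0.27), Egr1 (-0.26, SE 0.39), Nr4a1 (-0.13, SE 0.84) and Dusp2 (0.42, SE 0.82). For Fos (-0.05, SE 2.32), Egr3 (0.40, SE 1.69) and Nr4a3 (1.94, SE 2.16) the error allowed changes of several-fold in either direction. The 95% intervals of Cd69 (-0.72 to 0.34) and Egr1 (-1.03 to 0.51) were the narrowest of the set. They were built from the SE on a normal scale and run narrower than the test. That of Ier2 ended at -0.096, short of 0, while its unadjusted edgeR p was 0.0544. In host CPM 0 of 9 genes had hosts without overlap, where 1.15% of all genes tested had the vehicle hosts all above and 1.03% all below. Fewer cells with a transcript and less of it per cell cannot be told apart in such sums. With hosts pooled, the median cell with a count of Egr2 had 218 CPM in acalabrutinib and 506 CPM in vehicle hosts. For Ier2 these medians were 254 and 299 CPM. Dusp2 went the other way (133 and 73.9 CPM), as Egr1 did. The medians were not tested.

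Shares of cells with the other 8 genes overlapped between treatments, with differences of -5.72 points for Ier2, -3.58 for Dusp2, -2.44 for Egr2, -1.25 for Cd69, -0.471 for Egr3, 0.538 for Fos, 1.52 for Nr4a1 and 1.68 for Nr4a3, and exact permutation p from 0.375 to 0.821. Single hosts set several of these values: Ier2 was at -10.3 points without V7 and -1.86 without V5, and Dusp2 at -5.88 without A8 and -0.567 without A10. Depth was alike, at a median of 788352 counts per cell in acalabrutinib and 796728 in vehicle hosts. The share of cycling cells was 42.7% to 67.5% in acalabrutinib and 54.5% to 69.2% in vehicle hosts, and that of Myc-positive cells 11.1% to 43.9% and 10.9% to 36.2%. Their part in the difference of Egr1, like that of the mix of genotypes in each host, was not tested.

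Cells in S or G2/M phase (389 cells) were then set against G1 cells (248 cells) within each host. None of the 9 genes is among the phase genes. Of the 9 genes, Ier2 leaned most towards cycling cells in share. It was found in 18.1% of cycling and 10.3% of G1 cells as a mean over hosts, higher in 7 of 8. The difference was 7.86 ± 8.37 points (SD, n = 8). The exact sign-flip test gave p = 0.0234 and an adjusted p of 0.169 over 19931 genes. In 7.62% of these genes the share was higher in cycling cells of every host, and the median difference of all genes was 1.03 points. How many were higher in 7 of 8 hosts was not counted. Without thinning the difference was 4.95 points (exact sign-flip p = 0.125). A11 was the exception, with 16.2% in G1 and 14.5% in cycling cells. Pooled over hosts, Ier2 was in 22.1% of S, 13.3% of G2/M and 10.2% of G1 cells. This split was not paired within hosts and was not tested. Hosts differed in their mix of phases, with 51 G1 and 23 S cells in A8 and 37 and 56 in A11. For S and G2/M cells together its CPM did not lean the same way (44.9 ± 26.0 in cycling and 48.6 ± 27.4 in G1 cells, SD, n = 8). With hosts pooled, Ier2 was at 58.2 CPM in S, 30.1 CPM in G2/M and 45.5 CPM in G1 cells. The median cell with a count had 299 CPM in S, 174 CPM in G2/M and 350 CPM in G1, and 232 CPM in cycling cells. No member passed the test on shares, nor did any other gene (0% called). With 8 hosts the exact sign-flip p cannot fall below 0.00781, so a gene could pass only if very many reached that floor together.

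Egr1 leaned towards G1 in level. Its mean was 145 ± 65.4 CPM in G1 and 101 ± 47.5 CPM in cycling cells (SD, n = 8), higher in G1 in 6 of 8 hosts. Cycling minus G1 on the log2 scale was -0.59 (SE 0.32, edgeR adjusted p = 0.476). The share of cells with Egr1 was 22.1% in G1 and 19.8% in cycling cells (exact sign-flip p = 0.375). Egr2 (-0.29, SE 0.55), Cd69 (-0.39, SE 0.51), Ier2 (-0.19, SE 0.37), Nr4a1 (-0.24, SE 1.86) and Dusp2 (0.22, SE 0.91) had log2 differences within 1 SE of 0, as had Egr3 (-1.02, SE 2.97), while Fos and Nr4a3 did not pass the filter on low counts. In the same fit, whose calls were 3.67% of 12647 genes, 0 of the 7 genes tested were called. The share of cells differed by -3.39 points for Egr2, -3.11 for Nr4a1, -1.71 for Egr3, -0.394 for Cd69, 0.0152 for Fos, 0.705 for Nr4a3 and 1.95 for Dusp2 (exact sign-flip p from 0.156 to 1). The test of whether the difference by phase depended on treatment called 0% of 18102 genes (edgeR, 552 at an unadjusted p under 0.05), and for the 9 genes its unadjusted p ranged from 0.170 to 0.892.

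Myc, the transcription factor that drives growth of selected LZ cells, had counts in 177 of 637 cells (27.8%). These Myc-positive cells were set against the 460 Myc-negative cells of the same hosts. Cd69 had the largest difference in share, in points, while Egr2 had a higher ratio of co-detection with Myc, given with the other pairs. It was in 24.0% of Myc-positive and 14.3% of Myc-negative cells in A11, 20% and 9.38% in A10, 23.1% and 11.5% in A12, 23.1% and 10.9% in A8, 20% and 12.8% in V5, 50.0% and 4.35% in V7, and 34.0% and 14.8% in V9. Every host was higher in the Myc-positive cells. Several of these shares rest on few thinned Myc-positive cells, 10 in V5, 13 in A8 and 15 in A10, so that single cells move them. A7 had only 4 Myc-positive cells after thinning and was left out. The means were 27.7% and 11.2%, a difference of 16.6 ± 13.3 points (SD, n = 7; exact p over sign flips 0.0156, adjusted 0.383 over 19930 genes, where 7 hosts cannot give a lower p). In 3.33% of genes the share was higher in Myc-positive cells of every host. In V7, which had the largest difference, only 6 cells were Myc-positive, and without V7 the difference was 11.7 points. The level moved with the share: Cd69 was at 98.4 to 420 CPM in Myc-positive and 0.268 to 64.6 CPM in Myc-negative cells, higher in 8 of 8 hosts. Its log2 difference was 1.73 (SE 0.82, edgeR adjusted p = 0.621). How many of all genes were likewise higher in CPM in every host was not counted.

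**Figure D3:**
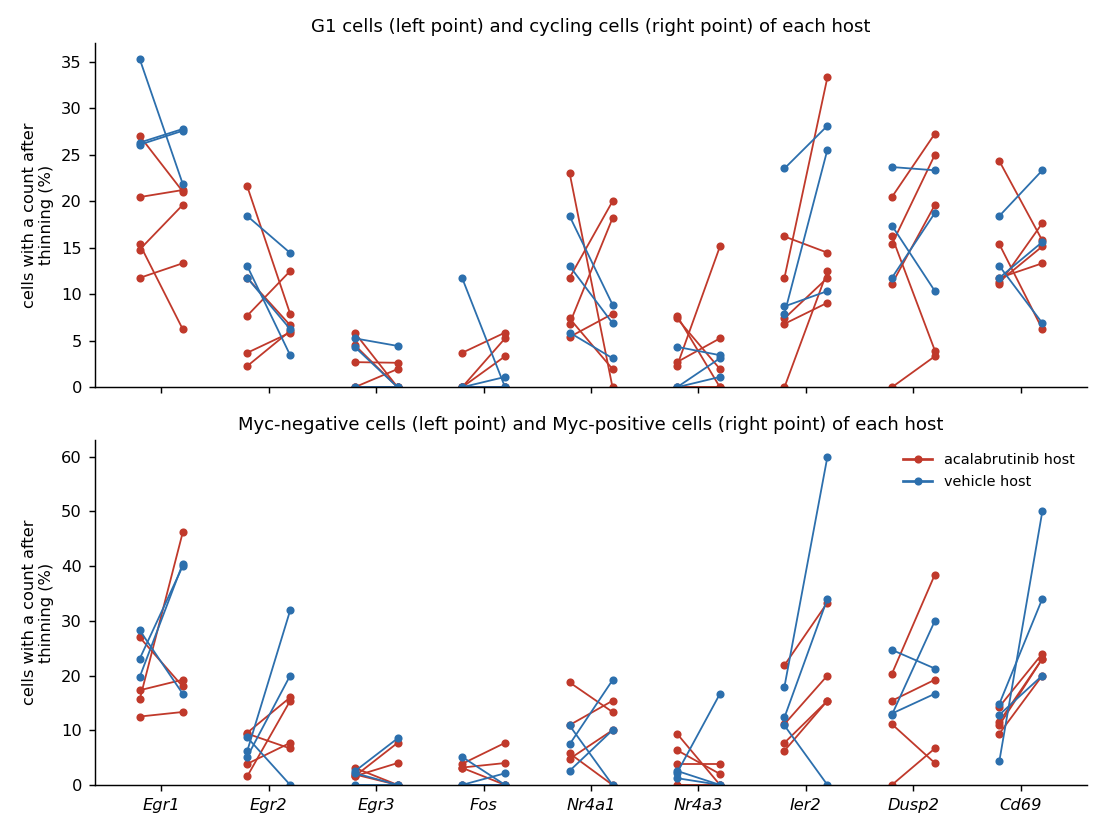
Lines join the shares of thinned cells with a count of each gene in the classes of cells of 1 host, G1 and cycling above, Myc-negative and Myc-positive below. A host is drawn where it had 5 or more thinned cells in both classes. The lines of Cd69 all climb from Myc-negative to Myc-positive cells, and those of Ier2 climb from G1 to cycling cells in 7 of 8 hosts.

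Ier2, Egr2 and Egr1 were also seen in larger shares of Myc-positive cells, without passing the test. With 7 hosts the exact sign-flip p cannot fall below 0.0156, so a gene could pass only if very many reached that floor together. Ier2 was in 25.4% against 12.6% (12.9 ± 16.1 points, SD, n = 7, higher in 6 of 7 hosts; exact sign-flip p = 0.0781, adjusted p = 0.522). Egr2 was in 13.95% against 6.33% (7.62 ± 11.6 points, 5 of 7 hosts, exact p = 0.141) and Egr1 in 27.7% against 20.5% (7.19 ± 15.8 points, 5 of 7 hosts, exact p = 0.266). V7, with its 6 Myc-positive cells, went the other way for all of these 3 genes. Without V7 the differences were 16.8 points for Ier2, 10.3 for Egr2 and 10.3 for Egr1. The lowest values were 8.00 points for Ier2 without V5, 4.60 for Egr2 without V9 and 3.30 for Egr1 without A8. Differences were 5.56 points for Dusp2, 1.05 for Egr3, 0.972 for Nr4a1, -0.208 for Fos and -0.433 for Nr4a3 (exact sign-flip p from 0.203 to 0.875). Myc-positive cells were deeper (median 890495 against 751578 counts) and more often cycling (70.6% against 57.4%). Within G1 cells with hosts pooled and thinned, Cd69 was in 36.0% of 50 Myc-positive and 9.04% of 166 Myc-negative cells. Egr2 was in 22% and 8.43%, Egr1 in 30.0% and 20.5%, and Ier2 in 18% and 7.83%. These pooled shares do not pair the classes within hosts. The edgeR fit of G1 cells, paired within hosts, rested on 4 hosts, and there the log2 difference of Egr2 was negative.

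In summed counts none of the 7 genes tested was called between the Myc classes, in a fit that called 0.0472% of 12714 genes. The median log2 difference of all genes was -0.42 in this fit and -0.024 in the fit without the host block. The errors and p given here are against 0 and not against that median. Egr2 (0.98, SE 1.28), Ier2 (0.50, SE 1.06), Egr1 (-0.09, SE 0.43), Dusp2 (-0.18, SE 0.97) and Nr4a1 (-0.62, SE 2.15) had wide errors. Egr3 had the smallest p of the set (log2 difference -3.84, SE 1.32, edgeR adjusted p = 0.441). Its CPM was lower in the Myc-positive cells of 6 hosts and higher in 1, A11 (7.64 against 3.75 CPM), with host means of 1.07 and 1.69 CPM, and the log2 difference was -4.69 to -3.26 without any 1 host. With hosts pooled the values lay the other way, at 2.42 CPM in Myc-positive and 1.92 CPM in Myc-negative cells, and Egr3 was found in 7 of 177 and 8 of 460 cells.

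The genes were found together in the same cells more often than their shares within each host give. Over the 36 pairs, 343 pairings were seen against 230 from the product of the shares, a ratio of 1.49, and 26 pairs lay above 1. The ratios of the Egr genes with each other were all above 2. Egr1 and Egr2 were found together in 32 cells against 12.99 from the shares (ratio 2.46, above in 7 of 8 hosts), so that 57.1% of Egr2 cells had Egr1, whereas 18.4% of cells without Egr2 had it. Egr3 was with Egr1 in 9 cells against 3.32 and with Egr2 in 6 against 1.60. Egr1 was also found with Ier2 (37 cells against 20.2, ratio 1.83, above in 8 of 8 hosts) and with Dusp2 (33 against 21.1, ratio 1.56, 7 of 8 hosts), but hardly more than its share with Cd69 (25 against 21.0, ratio 1.19). These cells share hosts, plates and wells of like depth, and the ratios are a description without a test. Pairs of other genes found in like shares were not counted, so the ratios cannot be called particular to this set.

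Nr4a1 joined the set only in part. It was with Egr1 in 18 cells against 11.6 (ratio 1.56, 5 of 8 hosts) and with Ier2 in 14 against 8.52 (ratio 1.64, 5 of 8 hosts), while with Cd69 it was in 6 against 8.496 and with Dusp2 in 9 against 8.55. Among cells with at least 5 counts of each, Nr4a1 and Egr1 were together in 11 against 5.87. Nr4a3, in 19 thinned cells, was with Cd69 in 7 against 2.83 and with Nr4a1 in 2 against 1.62. Among cells with at least 5 counts of each, Nr4a3 and Cd69 were together in 2 against 1.25. Nr4a3 was with neither Egr3 nor Fos in any cell, where the shares give only 0.412 and 0.379 cells. Myc was found with Egr2 in 32 cells against 17.9 (ratio 1.79, 6 of 8 hosts), with Cd69 in 45 against 28.8 (ratio 1.56, 8 of 8 hosts) and with Ier2 in 43 against 27.5 (ratio 1.56, 7 of 8 hosts), and with Dusp2 in 28 against 25.2. With Egr1, Myc was in 45 cells against 37.4 (ratio 1.20, 6 of 8 hosts). Thus 57.1% of Egr2 cells, 48.9% of Cd69 cells and 48.3% of Ier2 cells had Myc, against 35.4% of Egr1 and 30.4% of Dusp2 cells.

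Of the 573 cells, 249 (43.5%) had a count of none of the 9 genes, 174 of 1, 96 of 2, 34 of 3 and 20 of 4 or more, and the most in 1 cell was 6. From the shares alone, 202 cells with none and 5.26 with 4 or more would be counted. Cells with 4 or more genes came from 7 of the 8 hosts (A12 had none), 8 from acalabrutinib and 12 from vehicle hosts, and V9 gave 9 of them. In these 20 cells 50.0% had Myc, against 18.5% of the 249 cells with none of the genes and 29.0% of all thinned cells. Cycling cells were 55.0% of the former and 60.6% of the latter.

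**Figure D4:**
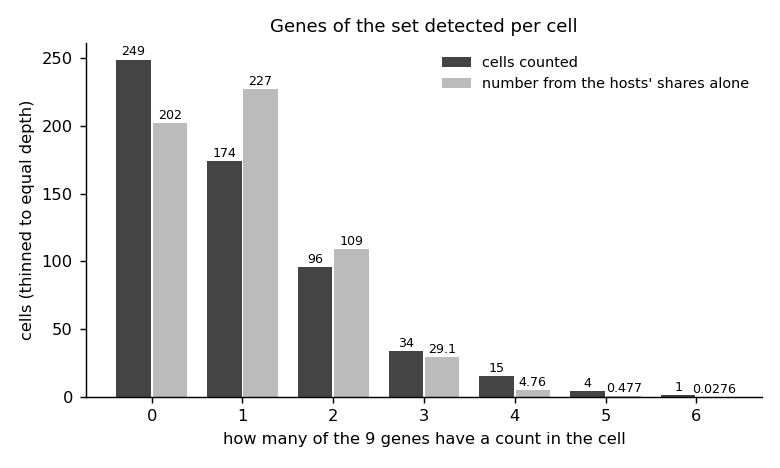
Dark bars count the thinned cells by how many of the 9 genes have a count in the cell, and light bars give the number that the shares of the genes within hosts produce when the genes are independent. More cells than that have none (249 against 202) or 4 and 5 of the genes (15 against 4.76 and 4 against 0.477), and fewer have 1 (174 against 227).

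Across all 9614 genes found in at least 10% of thinned cells, the 3 genes whose level followed each member most closely within hosts had a Spearman rho of at least 0.30 in 1 case: Egr1 for Egr2 (rho 0.31 over 573 cells, which share depth, hosts and plates). Between members the next was Egr1 with Ier2 (rho 0.21).

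Genes that act beside, upstream of or against the set were read from lists. The 24 other early genes included Junb, which pairs with FOS and was found in 41.4% of cells before thinning, and Jun (1.73% of cells before thinning). Of the 24, 19 could be tested between treatments and 0 were called, with a median log2 difference of 0.04 beside 0.02 for all genes. Likewise 0 of 17 feedback regulators (median 0.12), 0 of 14 upstream factors (median -0.10) and 0 of 6 heat shock and stress genes (median 0.05) were called between treatments. Between cycling and G1 cells, where 3.67% of all genes were called, 2 of 15 other early genes fell, Cd83, an activation and LZ marker (-0.85, SE 0.13, edgeR adjusted p = 0.00491), and Btg2, an antiproliferative gene (-0.80, SE 0.11, adjusted p = 0.00352), while none rose. Of the feedback regulators Zfp36l1, which speeds the decay of AU-rich RNAs, fell (1 of 16, -0.54, SE 0.09, adjusted p = 0.00983), of the upstream factors the ETS factor Elk3 fell (1 of 14, -1.51, SE 0.36, adjusted p = 0.0485), and of the stress genes the chaperone Hsp90aa1 rose (1 of 6, 1.26, SE 0.25, adjusted p = 0.0201). The call of Elk3 was lost under 12 of 14 other settings, while its log2 difference stayed at -1.68 to -1.31 without any 1 host. Cell markers moved in the same comparison: 4 of 4 B cell markers fell in cycling cells (median -0.49), as did 3 of 4 light zone markers, of which Cd83 is one (median -0.82), and 1 of 3 dark zone markers rose (median 0.80). Their part in the changes of the lists was not tested. The medians of these lists were -0.19, -0.09, -0.09 and 0.09, beside 0.14 for all genes and -0.29 for the 7 members tested.

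Between Myc classes 1 gene of the lists was called, Nfkbia, the inhibitor that NF-kB induces against itself, which rose in Myc-positive cells (1 of 17 feedback regulators, log2 difference 1.70, SE 0.21, edgeR adjusted p = 0.0287). Without any 1 host its log2 difference was 1.60 to 1.83 and the adjusted p 0.0517 to 0.111, so that the call needed all 8 hosts. None of 14 other early genes, 14 upstream factors or 6 stress genes was called. List medians were 0.01 for the other early genes, -0.20 for the feedback regulators, -0.49 for the upstream factors and 0.22 for the stress genes, and -0.09 for the members, beside -0.42 for all genes.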

How the data were processed

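SMART-seq2 libraries of 637 single cells were used. The authors aligned reads with STARsolo 2.7.10a to GRCm39, counted reads over whole gene regions with introns, and discarded cells by mitochondrial share and number of genes in their own analysis. They deposited whole-number counts of reads deduplicated by exact position, not normalized. Both GRCm39 and GRCm38 are named in the submitters' processing notes. Runs are named for 685 cells, of which 48 are absent from the matrix used here. Cells were taken to hosts by name. No other columns were used, and no doublet caller was run on these sorted wells. The study sorted the cells in independent experiments, and which hosts belong to which is not given in the sources used here.

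Counts were summed per host, or per host and class, and tested with edgeR 4.0.16 (quasi-likelihood, TMM, filterByExpr, host as block for classes, at least 5 cells per side) under R 4.3.3, with Benjamini-Hochberg adjustment over all genes tested. DESeq2 1.42.0 and limma 3.58.1 were alternatives. Phases were called with Seurat 5.3.0 from 43 S and 54 G2/M genes, and 30 cells lay within 0.05 of a boundary. Myc-positive means at least 1 Myc count. Cells were thinned to the 10th percentile of depth, leaving out 64. Shares were tested by exact permutation or sign flips over hosts in genes found in at least 1% of thinned cells, with Python 3.11.15, NumPy 2.4.6 and SciPy 1.17.1. Ranks for rho were taken within hosts, in place of the planned centring within hosts, which let host means order the many cells at 0. Pairing of classes comes from the shared animal. Intervals of shares are exact binomial and treat cells as independent. They cover counting error only and leave out the spread between hosts. Amplified copies are not independent molecules. The tests were checked on simulated data. For edgeR these held changes larger than most given here and no difference between hosts. They do not show how well it finds smaller changes. Exon lengths are of GENCODE M21. Genes named beyond the members were those of fixed lists past the threshold (at most 4 per list, by size of change) and the nearest 3 per member with rho of at least 0.3. Members and lists were chosen with earlier results of these data known. Junb, Jun, Ms4a1 and the markers given were named after their values were seen.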

Additional observations from a re-analysis of the deposited data

How the results depend on the processing

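Across every setting tried, 0 of 656 values of the 9 genes had an adjusted p under 0.05. Those from the tests on shares could hardly do so, since the number of hosts sets a floor to their p. Between treatments edgeR called 0 genes, also without any 1 host, and DESeq2 called 94. By phase edgeR called 464, DESeq2 2052, edgeR without the filter on low counts 252, and edgeR without 1 host 295 to 360. By Myc edgeR called 6, DESeq2 1193, limma on mean CPM 18, edgeR on thinned counts 1, with at least 10 Myc counts 1, without the filter 0, in G1 cells alone 0, and without any 1 host 0 to 0. Without the replicate block for host, 417 genes were called by phase and 21 by Myc. The causes were not tested.

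Log2 differences between treatments that changed sign were Nr4a1 0.16 with limma on mean CPM, Nr4a1 0.10 on thinned counts, Nr4a1 0.12 in G1 cells alone, Nr4a1 0.61 in Myc-negative cells alone, Egr3 -0.31 with limma on mean CPM, Fos 3.79 in cycling cells alone, Cd69 0.0686 in Myc-negative cells alone, Dusp2 -0.17 with limma on mean CPM and Dusp2 -0.18 in G1 cells alone. Log2 differences by phase that changed sign were Nr4a1 0.11 on thinned counts and Ier2 0.15 on thinned counts. Log2 differences by Myc that changed sign were Nr4a1 0.13 on thinned counts, Nr4a1 0.0504 with at least 10 Myc counts, Nr4a1 2.02 in G1 cells alone, Nr4a1 0.58 without the host block, Egr1 0.89 in G1 cells alone, Egr1 0.14 without the host block, Egr2 -3.22 in G1 cells alone and Egr3 0.83 in G1 cells alone. Shares in points between treatments that changed sign were Egr3 0.311 with at least 5 counts and Cd69 0.464 with at least 5 counts. Shares in points by phase that changed sign were Cd69 1.24 without thinning. Shares in points by Myc that changed sign were Nr4a1 -2.56 without thinning, Nr4a3 3.25 without thinning, Fos 0.0965 without thinning, Egr3 -0.783 with at least 5 counts and Fos 0.159 with at least 5 counts.

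Leaving out 1 host at a time, log2 differences between treatments spanned 0 for Nr4a1 (-0.54 to 0.93), Egr1 (-0.54 to 0.24), Egr3 (-0.53 to 0.72), Fos (-0.64 to 3.29) and Dusp2 (-0.0427 to 0.72). Leaving out 1 host at a time, log2 differences by phase spanned 0 for Nr4a1 (-0.96 to 0.46), Egr3 (-2.85 to 0.34), Ier2 (-0.33 to 0.000765) and Dusp2 (-0.23 to 0.48). Leaving out 1 host at a time, log2 differences by Myc spanned 0 for Nr4a1 (-1.65 to 0.19), Egr1 (-0.27 to 0.21) and Dusp2 (-0.63 to 0.11). Leaving out 1 host at a time, shares in points between treatments spanned 0 for Nr4a1 (-0.671 to 3.15), Egr2 (-3.84 to 0.126), Egr3 (-1.57 to 0.771), Fos (-0.272 to 1.77) and Cd69 (-4.07 to 2.06). Leaving out 1 host at a time, shares in points by phase spanned 0 for Nr4a3 (-1.03 to 1.9), Fos (-0.735 to 1.7) and Cd69 (-1.38 to 0.855). Leaving out 1 host at a time, shares in points by Myc spanned 0 for Nr4a1 (-0.822 to 2.95), Nr4a3 (-2.92 to 1.06) and Fos (-0.883 to 0.612). The Egr1 share between treatments (-11.5 to -8.31 points), Cd69 by Myc (11.7 to 18.1) and Ier2 by phase (5.90 to 9.23) kept their direction without any 1 host. Shares that kept their direction but moved by over 1.5 times include Ier2 (-10.3 to -1.86 points) and Dusp2 (-5.88 to -0.567) between treatments, and Egr1 (3.30 to 10.3), Egr2 (4.60 to 10.3) and Ier2 (8.00 to 16.8) by Myc. Rare genes set the limits: Fos, Egr3 and Nr4a3 rest on 12 to 29 cells.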
